A study of Rattus norvegicus with 6 samples.

Results

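The genes of the intercalated disc junctions were compared in primary neonatal rat cardiomyocytes, a culture of beating heart muscle cells, with and without human recombinant cardiotrophin 1 (hCT1), a cytokine of the interleukin-6 family. The list held 10 genes, chosen by name: Cdh2, Dsp, Jup, Pkp2, Dsg2, Dsc2, Gja1, Gja5, Ctnna3 and Tjp1. A gene counted as measured where the platform annotation paired a probe set with its symbol and no other. This gave 7 probe sets, 1 for each of 7 genes, among 15310 such probe sets and 29215 in all. Dsp (desmoplakin), Dsg2 (desmoglein-2) and Ctnna3 (alpha-T-catenin) were paired with no probe set in that annotation and were not analysed here.

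The hCT1 group held 3 samples given hCT1 at 0.5 nM in serum-free medium and harvested 24 h later, and the Control group held 3 samples kept in serum-free medium alone. All 6 came from ventricles of Sprague-Dawley rats that were 2 days old, with no genetic change named, and the cells had been pre-plated to deplete fibroblasts. The growth entry of the sample records names a hypertrophic agonist for every sample, Control included, while the treatment entry names control medium. If the Control cells did receive an agonist, every difference given here is against that. Expression was read on Affymetrix rat arrays that probe whole transcripts, 1 per sample, and the deposited log2 values from RMA (robust multi-array average) were used as they stood. The records speak of triplicates but not of separate cultures, and the p-values therefore cover the spread among these 6 arrays only, which may be technical.

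Heart muscle cells meet end to end at the intercalated disc. Adherens junctions, built on N-cadherin and the catenins, tie the actin of neighboring cells together, and desmosomes, built on desmogleins, desmocollins, plakoglobin, plakophilin and desmoplakin, tie their desmin filaments together. Gap junctions, made of connexins, pass current and small molecules from cell to cell, and in the heart the junction types mix in a zone called the area composita. Connexin 43 (Gja1) is the main connexin of working ventricular muscle, whereas connexin 40 (Gja5) is known from the atria, the conduction system and arterial endothelium.

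Of the 7 measured genes, 3 rose with hCT1 and none fell at a Benjamini-Hochberg adjusted p under 0.05 from limma. These were the connexin gene Gja5 (1.21-fold), the zonula occludens gene Tjp1 (1.17-fold) and the plakophilin gene Pkp2 (1.15-fold). N-cadherin (Cdh2), plakoglobin (Jup), desmocollin-2 (Dsc2) and connexin 43 (Gja1) did not pass the test, and their log2 fold changes lay between -0.01 and 0.04. Over all 15310 probe sets tested, 14.8% were called, with 4.98% higher and 9.84% lower. Higher calls made up 33.6% of these calls, and 44.4% (917 higher, 1148 lower) after another quantile normalization of the arrays. All 3 rises were small: 507 of the 762 probe sets called higher had a larger log2 fold change than Gja5, 696 than Tjp1 and 740 than Pkp2. The median log2 fold change was 0.04 over the 7 probe sets and -0.003 over all tested probe sets. No member reached 1.5-fold, which 240 of all tested probe sets did.

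**Figure D1:**
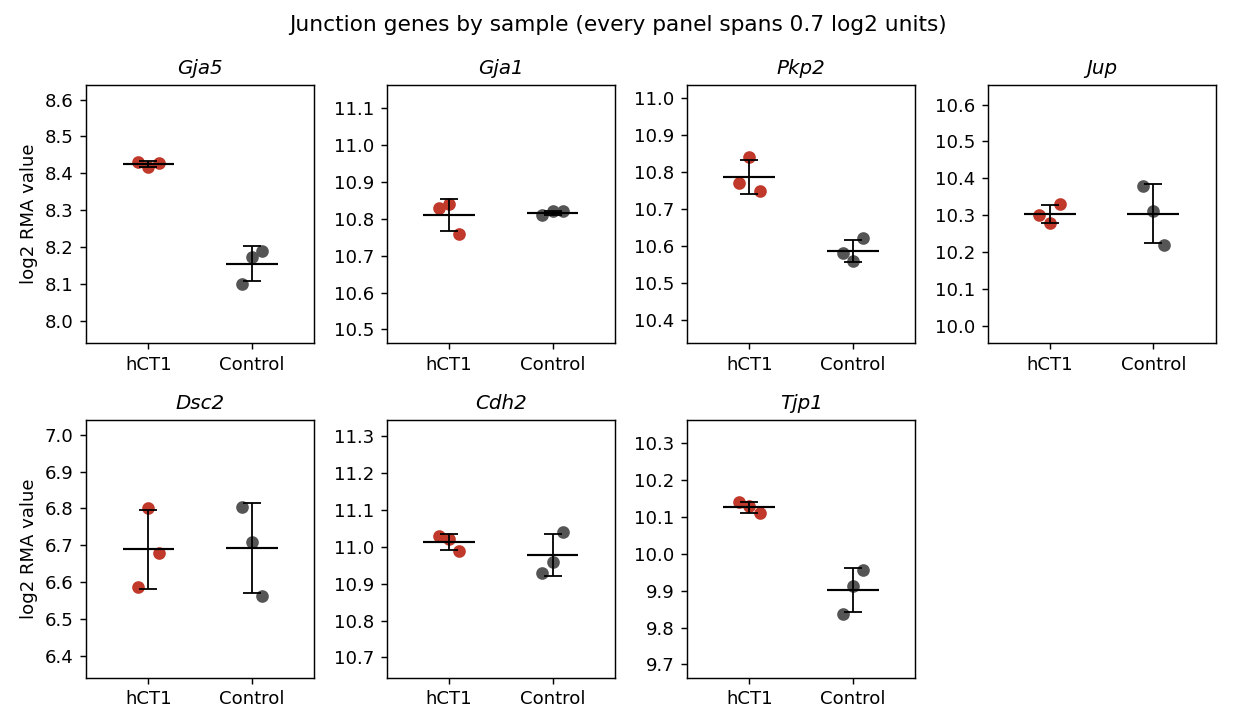
The log2 RMA value of each measured junction gene is plotted per sample, with hCT1 in red and Control in grey; horizontal lines are means and error bars the SD (n = 3 each). Every hCT1 point lies above every Control point for Gja5, Pkp2 and Tjp1, and the groups overlap for Gja1, Jup, Dsc2 and Cdh2.

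The promoters of the connexin genes Gja5 and Gja1 are shown because these were the measured connexins of the list and gave different results. Each line is the 250 bases before the annotated start, 5′ to 3′ on the plus strand, from RefSeq (build GRCr8), at chr2:187290977-187291226 for Gja5 and chr20:36302314-36302563 for Gja1. Capitals mark matches to 4 motifs searched on both strands: TTCNNNGAA (STAT factors, which act downstream of this cytokine family), AGGTGT (T-box factors), AAGTG (Nkx2-5) and TGANTCA (AP-1).
Gja5: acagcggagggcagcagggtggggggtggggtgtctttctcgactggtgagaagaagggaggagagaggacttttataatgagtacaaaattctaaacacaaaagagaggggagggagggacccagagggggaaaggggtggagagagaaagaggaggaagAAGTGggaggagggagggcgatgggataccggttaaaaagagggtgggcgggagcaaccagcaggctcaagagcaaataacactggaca
Gja1: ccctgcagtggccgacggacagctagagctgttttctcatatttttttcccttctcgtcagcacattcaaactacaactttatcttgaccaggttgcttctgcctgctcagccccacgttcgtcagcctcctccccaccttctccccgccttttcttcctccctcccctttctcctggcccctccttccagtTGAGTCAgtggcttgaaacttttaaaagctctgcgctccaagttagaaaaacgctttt

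The Gja5 window held 1 match, the Nkx2-5 letters starting 89 bases before the start, and 40.6% of all 33469 promoter windows of this length held these letters. The Gja1 window held 1 match, the AP-1 letters starting 58 bases before the start, present in 6.34% of all windows. Windows were matched for 8 of the 10 listed genes. The STAT letters occurred in 0 of these 8 and in 7.67% of all windows, and the T-box letters in 2 of the 8 (Dsc2 and Dsp) and in 11.6% of all windows. None of the 4 motifs overlapped another in the printed windows.

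Gja5 encodes connexin 40, a gap junction channel subunit. Its log2 values (probe set 10817666) were 8.43, 8.42 and 8.43 in the hCT1 samples, against 8.10, 8.17 and 8.19 in the Control samples. The hCT1 samples lay within 0.02 of each other and 0.23 above the highest Control sample. The mean was 8.43 ± 0.01 with hCT1 and 8.15 ± 0.05 in Control (SD, n = 3 each), a difference of 0.27 on the log2 scale (SE 0.05, 95% interval 0.15 to 0.39, limma adjusted p = 0.011). By p-value the probe set ranked 913 of 15310. The call held in each fit with 1 sample left out, with a log2 fold change of 0.24 to 0.29 and an adjusted p of 0.0154 to 0.0442.

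Gja1 encodes connexin 43. Its values (probe set 10830189) were 10.83, 10.84 and 10.76 with hCT1, against 10.81, 10.82 and 10.82 in Control. The hCT1 samples lay on either side of the Control samples, which lay within 0.02 of each other. For Gja1 the log2 fold change was -0.01 (SE 0.05, limma adjusted p = 0.953), and its 95% interval, -0.13 to 0.12, corresponds to a fold of 0.916 to 1.08. The sign turned to 0.01 after another quantile normalization or after centring on the median. Gja1 lay at percentile 97.5 of mean signal over all probe sets and Gja5 at percentile 80.3, so that neither was among the dim probe sets. The log2 difference between the probe sets, Gja5 minus Gja1, averaged -2.38 ± 0.05 with hCT1 and -2.66 ± 0.04 in Control (SD, n = 3 each), and shifted by 0.28. It lay between -2.43 and -2.33 in the hCT1 samples and between -2.71 and -2.63 in the Control samples. Probes of different genes bind unequally, so only the shift of this difference is informative and not its size. The pair was picked with the values known, and the shift is given without a test.

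**Figure D2:**
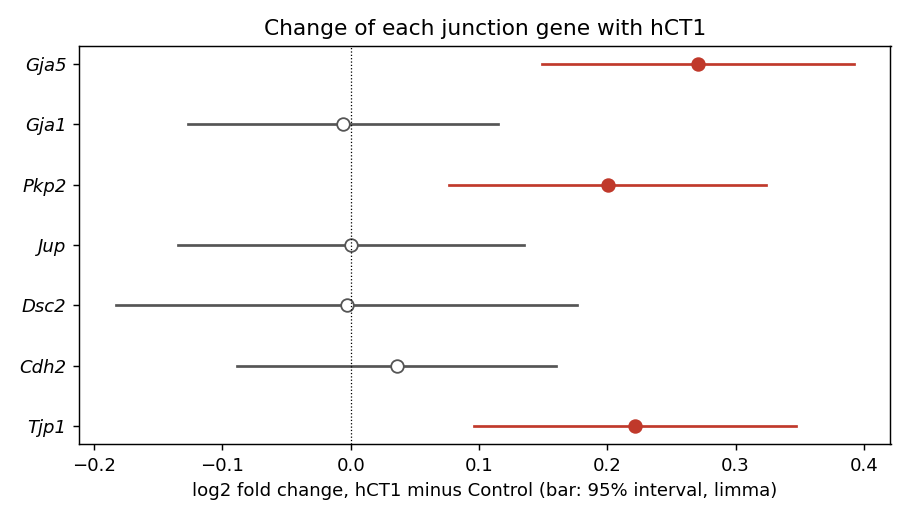
The log2 fold change of each measured junction gene (hCT1 minus Control, 3 samples each) is drawn with its 95% interval from limma; points that passed at 0.05 are filled red and the others open grey. The intervals of Gja5, Pkp2 and Tjp1 start at 0.08 or higher, and the other 4 span 0.

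No measured connexin other than Gja5 passed as higher. Of 10 measured connexins outside the list, 2 were lower, 0 higher and 8 did not pass the test, with a median log2 fold change of 0.01. At an unadjusted p under 0.05 from limma, 3 of the 10 passed, as did 4594 of all 15310 tested probe sets. Gja3, a connexin gene known chiefly from the eye lens, had log2 values of 7.65, 7.60 and 7.41 with hCT1, against 7.99, 7.96 and 7.95 in Control. It fell by 0.41 on the log2 scale (SE 0.07, limma adjusted p = 0.00551) and passed in all 6 fits with 1 sample left out. Gjd3, a further connexin gene, had values of 5.77, 5.77 and 5.83 with hCT1, against 6.23, 6.04 and 5.94 in Control, a log2 fold change of -0.28 (limma adjusted p = 0.0398). With 1 sample left out it passed only without Control replicate 3 (adjusted p = 0.0178); the adjusted p was 0.109 and 0.0889 with Control replicate 1 or 2 left out, and 0.106, 0.105 and 0.0761 with hCT1 replicate 1, 2 or 3 left out. Gja4 (connexin 37, an endothelial connexin) had a log2 fold change of -0.15 and did not pass (limma adjusted p = 0.147). The remaining 7 lay below percentile 40 of mean signal, so their values may be background.

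The T-box factor Tbx5 and the homeobox factor Nkx2-5 are known from mouse to act on the Gja5 gene. Of 11 transcription factors known to act on Gja1 or Gja5 in heart or related tissues, Tbx5 passed as lower, 0 as higher and 10 did not pass. Tbx5 had log2 values of 8.21, 8.17 and 8.29 with hCT1, against 8.60, 8.56 and 8.38 in Control. Its log2 fold change was -0.29 (SE 0.07, limma adjusted p = 0.0247). Any part of Tbx5 in the rise of Gja5 was not tested. With replicate 3 of either group left out the call of Tbx5 held. It was lost when Control replicate 1 (adjusted p = 0.0857) or 2 (0.0878), or hCT1 replicate 1 (0.0708) or 2 (0.084), was left out. Without Control replicate 3, 4 factors were lower. The 11 log2 fold changes ran from -0.29 for Tbx5 to -0.0013 for Tbx3, with a median of -0.15, and that of Nkx2-5 was -0.11 (limma adjusted p = 0.327).

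Among the desmosomal genes, Pkp2 encodes plakophilin-2, an armadillo-repeat protein of the desmosomal plaque whose human gene is a main site of mutations in arrhythmogenic cardiomyopathy. Its values (probe set 10752576) were 10.77, 10.84 and 10.75 with hCT1, against 10.58, 10.56 and 10.62 in Control. The lowest hCT1 sample lay 0.13 above the highest Control sample. The means were 10.79 ± 0.05 with hCT1 and 10.59 ± 0.03 in Control (SD, n = 3 each), and the log2 fold change was 0.20 (SE 0.05, 95% interval 0.08 to 0.32, limma adjusted p = 0.0393). With 1 sample left out, the call was lost in most fits. The limma adjusted p was 0.105 and 0.131 without Control replicate 1 or 2, and 0.0929, 0.124 and 0.0679 without hCT1 replicate 1, 2 or 3. The call held without Control replicate 3 (0.0413). The log2 fold change stayed between 0.17 and 0.22 in these 6 fits. Where the call was lost, higher calls over all tested probe sets fell too, from 762 to between 417 and 508.

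Jup encodes plakoglobin, an armadillo-repeat protein shared by desmosomes and adherens junctions. It was measured at 10.30, 10.28 and 10.33 with hCT1, against 10.38, 10.31 and 10.22 in Control (probe set 10747330). The hCT1 samples lay inside the range of the Control samples, and the means were 10.30 in each group. The log2 fold change was below 0.01 in size (SE 0.06, 95% interval -0.13 to 0.13, limma adjusted p = 0.998), which corresponds to a fold of 0.911 to 1.1.

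Dsc2 encodes desmocollin-2, a desmosomal cadherin. Its probe set (10803359) was the dimmest of the 7, at percentile 62.2 of mean signal, and the most variable between replicates. The values were 6.59, 6.80 and 6.68 with hCT1, against 6.80, 6.71 and 6.56 in Control, and the groups covered nearly the same range. The log2 fold change was below 0.01 in size (SE 0.08, 95% interval -0.18 to 0.18, limma adjusted p = 0.983), a fold of 0.881 to 1.13. Log2 changes as large as those of Pkp2, Tjp1 and Gja5 lay outside this interval, which belongs to limma as reported. For Dsc2 the estimate moved in other fits, to 0.07 (SE 0.07) after another quantile normalization and 0.05 (SE 0.08) without Control replicate 1. Intervals of those fits are not given, so the statement covers the reported fit only.

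A further 8 measured genes outside the list were grouped as desmosomal, with the desmin gene Des among them. Of these 8, 2 were higher, 0 lower and 6 did not pass the test (median log2 fold change below 0.01 in size). Des encodes desmin, the muscle intermediate filament that desmosomes anchor. It was measured at 11.91, 12.00 and 11.88 with hCT1, against 11.65, 11.67 and 11.63 in Control, a difference of 0.28 on the log2 scale (SE 0.06, limma adjusted p = 0.0109). Desmin passed in all 6 fits with 1 sample left out. Dsc3, a desmocollin gene known from stratified epithelium, had a log2 fold change of 0.23 (limma adjusted p = 0.0168), but at percentile 25.1 of mean signal its values may be background. It did not pass without Control replicate 2 (adjusted p = 0.0694), hCT1 replicate 1 (0.053) or hCT1 replicate 2 (0.0593). Perp, a desmosome-associated membrane protein gene, was bright and had a log2 fold change of -0.01 (limma adjusted p = 0.914).

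In the adherens junction, Cdh2 encodes N-cadherin, the classical cadherin of heart muscle. Its values (probe set 10803323) were 11.03, 11.02 and 10.99 with hCT1, against 10.93, 10.96 and 11.04 in Control. Control replicate 3 lay above every hCT1 sample and the other Control samples below them. N-cadherin had a log2 fold change of 0.04 (SE 0.06, 95% interval -0.09 to 0.16, limma adjusted p = 0.708), a fold of 0.94 to 1.12. It was the brightest probe set of the list, at percentile 97.95 of mean signal.

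Tjp1 encodes zonula occludens 1, a scaffold that binds the tail of connexin 43 and, through alpha-catenin, the adherens junction. Its values (probe set 10722589) were 10.14, 10.13 and 10.11 with hCT1, against 9.84, 9.91 and 9.96 in Control. The lowest hCT1 sample lay 0.15 above the highest Control sample. The means were 10.12 ± 0.01 with hCT1 and 9.90 ± 0.06 in Control (SD, n = 3 each), a difference of 0.22 on the log2 scale (SE 0.06, 95% interval 0.10 to 0.35, limma adjusted p = 0.029). As for Pkp2, most fits on 5 samples did not pass: leaving out Control replicate 1, 2 or 3 gave an adjusted p of 0.101, 0.0828 and 0.0249, and leaving out hCT1 replicate 1, 2 or 3 gave 0.0866, 0.0817 and 0.0673. Over these fits the log2 fold change stayed between 0.19 and 0.25.

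The log2 difference Tjp1 minus Cdh2 averaged -0.89 in the hCT1 samples and -1.08 in the Control samples, and shifted by 0.19. The difference Pkp2 minus Jup averaged 0.49 with hCT1 and 0.29 in Control, and shifted by 0.20, the lowest hCT1 sample (0.42) lying 0.02 above the highest Control sample (0.40). These pairs too were picked with the values known, and no test is given.

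**Figure D3:**
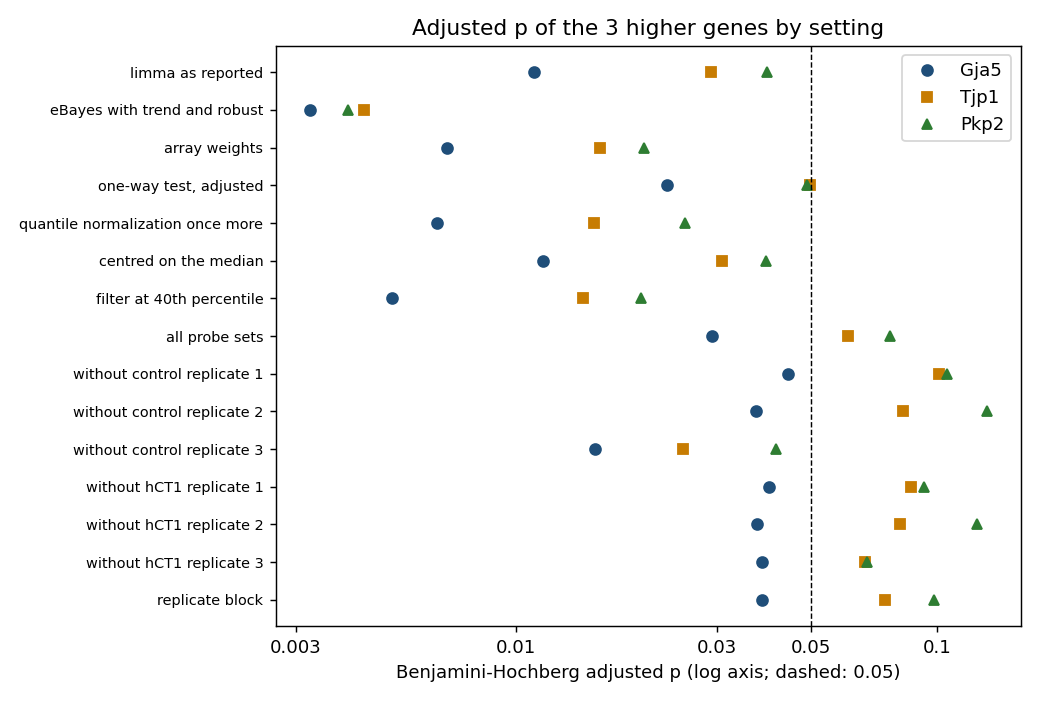
The adjusted p of Gja5 (blue circles), Tjp1 (orange squares) and Pkp2 (green triangles) is plotted on a log axis for limma as reported and for 14 other fits; the dashed line is 0.05. Gja5 lies left of the line in all 14, and Tjp1 and Pkp2 in 7 of 14 each.

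Every hCT1 sample lay on one side of every Control sample for 3 of the 7 members (Gja5, Pkp2 and Tjp1), and for 34.3% of all tested probe sets. Control replicate 3, without which Pkp2 and Tjp1 kept their calls, had the lowest of the weights that limma gives to arrays (0.527) and Control replicate 2 the highest (1.85). With 3 samples on each side, the smallest p of an exact permutation test is 0.1. The share called among the members was not tested against that among all probe sets, since 7 genes listed with results of these data known allow no such test.

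The list of linkers between junctions and cytoskeleton in the area composita held 17 measured genes, Z-disc genes such as Ldb3 included. Of these 17, 1 passed as higher and 2 as lower, while 14.8% of all tested probe sets were called in either direction. The other 14 did not pass, and the median log2 fold change of the 17 was 0.01. Ldb3, which encodes the Z-disc protein Cypher, was measured at 9.73, 9.67 and 9.58 with hCT1, against 10.21, 10.26 and 10.10 in Control, a difference of -0.53 on the log2 scale (SE 0.07, limma adjusted p = 0.00107). Nrap, the gene of a protein that anchors the ends of myofibrils at the disc, was measured at 9.97, 10.13 and 9.86 with hCT1, against 10.44, 10.36 and 10.42 in Control, a difference of -0.42 on the log2 scale (SE 0.07, limma adjusted p = 0.00639). These falls were called in all 6 fits with 1 sample left out.

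Ablim1, which encodes an actin-binding LIM protein, rose by a log2 fold change of 0.21 (limma adjusted p = 0.0306). That call was lost with any of the 6 samples left out, at an adjusted p of 0.0599, 0.0878 and 0.0536 without Control replicates 1, 2 and 3 and 0.0863, 0.0744 and 0.0854 without hCT1 replicates 1, 2 and 3. The catenin genes gave log2 fold changes of 0.04 for Ctnna1 (adjusted p = 0.785), below 0.01 for Ctnnb1 (adjusted p = 0.984) and 0.16 for Ctnnd1 (adjusted p = 0.0735), none of which passed limma's test. That of vinculin (Vcl), which binds alpha-catenin under tension, was -0.08 (limma adjusted p = 0.401).

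Of 15 measured genes listed as further residents of the disc, 1 was higher, 1 lower and 13 did not pass the test. F11r, which encodes the junctional adhesion molecule JAM-A, a membrane protein known to bind zonula occludens 1, was measured at 7.38, 7.36 and 7.27 with hCT1, against 6.83, 6.90 and 6.86 in Control. Its 1.39-fold rise (log2 fold change 0.47, SE 0.06, limma adjusted p = 0.000908) was larger than that of any member. Kcnj2, the gene of the inward rectifier potassium channel Kir2.1, was measured at 6.87, 6.79 and 6.80 with hCT1, against 7.53, 7.53 and 7.65 in Control, and fell by 0.75 on the log2 scale (SE 0.06, limma adjusted p = 7.95e-05). F11r and Kcnj2 passed in every fit with 1 sample left out. The coxsackie and adenovirus receptor gene Cxadr, a further partner of zonula occludens 1, had a log2 fold change of 0.18 and did not pass (limma adjusted p = 0.0605).

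**Figure D4:**
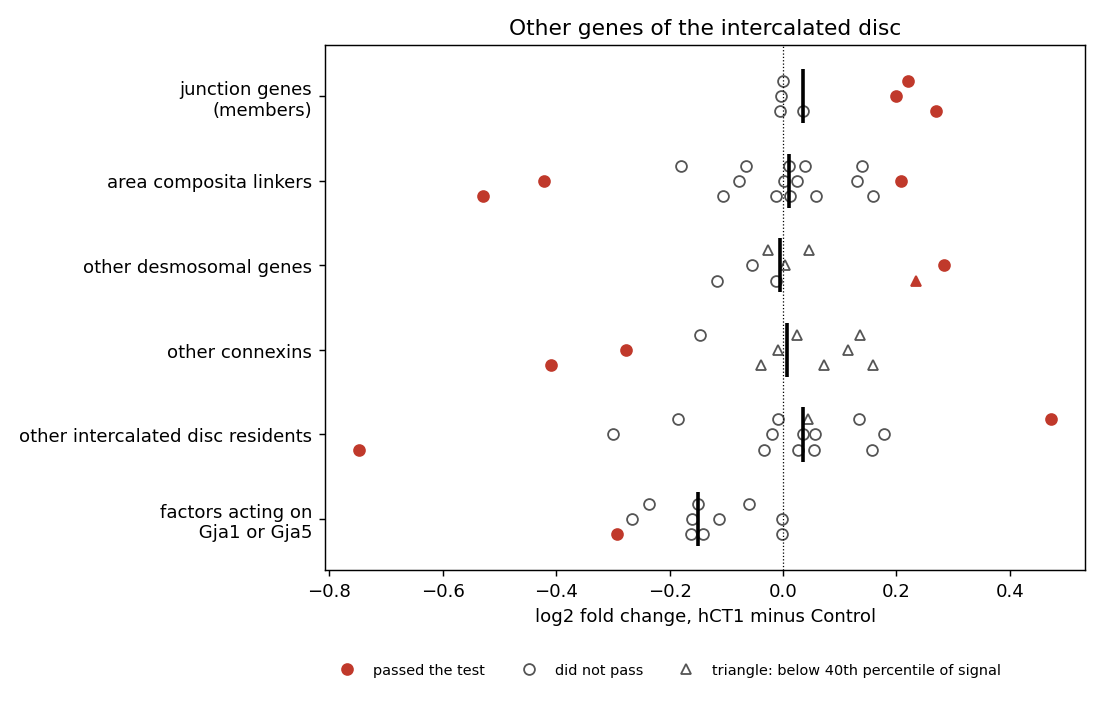
Log2 fold changes (hCT1 minus Control, 3 samples each) are plotted, 1 point per gene, for the 7 members and 5 lists of related genes; filled red marks passed an adjusted p of 0.05 in limma, triangles lie below percentile 40 of mean signal, and black bars are list medians. Medians lie between -0.15 and 0.04, with the factors acting on Gja1 or Gja5 the lowest and Kcnj2 (-0.75) and F11r (0.47) the outermost genes.

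The members are made by several cell types that a ventricular culture can hold, and the markers of these types are given beside them. Fewer cells of a type and less RNA per cell cannot be told apart in these bulk samples. Signal alone cannot show how pure the cultures were, since the fibroblast marker Col1a1 lay at percentile 99.3 of mean signal. Cardiomyocyte transcripts were present, and all 10 cardiomyocyte markers lay above percentile 81. Of these 10, 3 were lower with hCT1 (Tnni3 by a log2 fold change of -0.62, Myl2 by -0.48 and Myh6 by -0.45) and 0 higher, and the mean level of all 10 lay between 10.87 and 10.93 in the hCT1 samples and between 11.07 and 11.10 in the Control samples.

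Of 7 measured markers of atrial and conduction cells, in which connexin 40 is normally found, 4 were lower and 0 higher. The 4 were the calcium pump regulator gene Sln (-1.15), the atrial light chain gene Myl7 (-1.11), Bmp10 (-0.37) and the pacemaker channel gene Hcn4 (-0.35). The mean level of all 7 lay between 6.65 and 6.81 in the hCT1 samples and between 7.13 and 7.30 in the Control samples. Hcn4 did not pass without Control replicate 1 (adjusted p = 0.0612) or 2 (0.063), or without hCT1 replicate 1 (0.0529) or 2 (0.0615). Bmp10 lay at percentile 27.3 of mean signal and may be background.

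Of 9 measured endothelial markers, 1 was higher (Kdr, log2 fold change 1.18), 1 lower (Emcn, -0.47) and 7 did not pass. The log2 fold changes of these 7 were 0.17 for Flt1, with every hCT1 sample above every Control sample (adjusted p = 0.0645), 0.17 for Tek, 0.13 for Tie1, 0.12 for Egfl7, -0.02 for Pecam1, -0.03 for Cdh5 and -0.05 for Eng. The mean level of all 9 lay between 7.65 and 7.68 with hCT1 and between 7.48 and 7.60 in Control. With Kdr left out, after its value was seen, the mean level of the other 8 lay between 7.77 and 7.81 with hCT1 and between 7.73 and 7.87 in Control, and the groups overlapped. That mean kept Emcn, which had the lowest log2 fold change of the 9 (-0.47). The overlap therefore holds for this choice of markers only, and no other list was given with a marker left out. Emcn did not pass without Control replicate 2 (adjusted p = 0.0637) or 3 (0.0517), or hCT1 replicate 1 (0.057) or 2 (0.0739). Fibroblast collagen genes were also bright (Col1a1 at percentile 99.3 of mean signal). Of 9 fibroblast markers, 0 passed in either direction. An unadjusted p under 0.05 from limma was found for 3 of them, and for 4594 of all 15310 tested probe sets. The mean level of all 9 fibroblast markers lay between 9.00 and 9.06 with hCT1 and between 9.04 and 9.09 in Control. The part of these cell types in the rises of Gja5, Tjp1 and Pkp2 was not tested.

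Of 7 smooth muscle and pericyte markers, 3 were lower (Myh11 -0.39, Smtn -0.36 and Tagln -0.30) and 0 higher, with mean levels over all 7 of 9.28 to 9.30 with hCT1 and 9.40 to 9.44 in Control. Smtn did not pass without Control replicate 1 (adjusted p = 0.0618), Control replicate 2 (0.0595) or hCT1 replicate 2 (0.0643). Of 7 mesothelial and epicardial markers, 1 was higher (Krt19, 1.82) and 2 lower (Krt18 -0.71 and Msln -0.29). Mean levels over all 7 were 6.26 to 6.37 with hCT1 and 6.16 to 6.22 in Control. The higher mean with hCT1 rests on Krt19, while the median log2 fold change of the 7 was -0.09. In Control, Krt19 lay at percentile 36.4 of signal. Krt18 was lower on 2 of its 3 probe sets, the third giving -0.06. Msln did not pass without Control replicate 1 (adjusted p = 0.143) or 2 (0.15) or hCT1 replicate 2 (0.137) or 3 (0.138). The epithelial cadherin gene Cdh1 lay at percentile 27.4 of mean signal. Of 7 leukocyte markers, 1 was lower (Lyz2, -0.52) and 0 higher, and the defining gene Ptprc lay at percentile 22.8. The mean level of all 7 leukocyte markers lay between 4.76 and 4.85 with hCT1 and between 4.92 and 4.95 in Control.

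**Figure D5:**
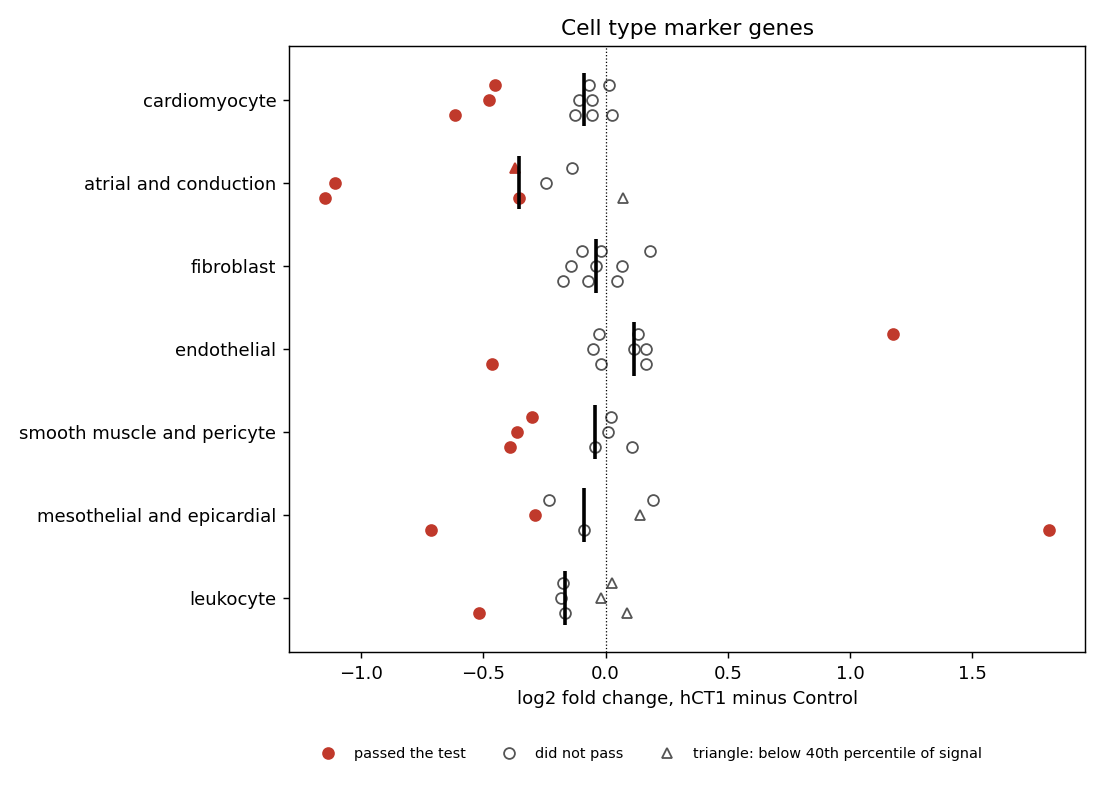
Marker genes are plotted by cell type at their log2 fold change (hCT1 minus Control, 3 samples each); filled red marks passed an adjusted p of 0.05 in limma, triangles lie below percentile 40 of mean signal, and black bars are list medians. The atrial and conduction list has the lowest median, -0.35, and the endothelial list the highest, 0.12.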

How the data were processed

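Total RNA of 3 hCT1 and 3 Control samples was profiled on Affymetrix arrays. The authors ran RMA in Affymetrix Expression Console (versions not given in the sources used here) and deposited its output on the log2 scale, after background subtraction, quantile normalization between arrays and a summary per probe set. The values come with no detection calls; probe sets below percentile 40 of mean signal are called dim. Folds are differences of log2 means put back on the linear scale. RMA compresses them for dim probe sets.

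Of 29215 probe sets, 15310 had exactly 1 symbol, 323 had several and 13582 had none; 15279 of the 15310 matched the RefSeq table (GRCr8) by Entrez identifier. hCT1 and Control were compared with limma 3.58.1 in R 4.3.3 (lmFit, eBayes without trend, 2-sided), with Benjamini-Hochberg adjustment over the 15310 and a threshold of 0.05. In lists, the probe set with the highest mean stood for a gene. The step was tested on simulated data. Members and lists were chosen with earlier results of these data known. Named genes were all members, in each list of related genes up to 3 past the threshold (all where 5 or fewer passed in 1 direction, the 2 largest where none did), and in each marker list up to 3 past the threshold. Gja4, Perp, Nkx2-5, Ctnna1, Ctnnb1, Ctnnd1, Vcl, Cxadr, Tbx3, Col1a1, Hcn4, the 7 endothelial markers that did not pass, Cdh1 and Ptprc were named outside this rule, after their values were seen. Gjc1, which had no value, was also named outside it. Pearson's r over all probe sets was 0.997 to 0.998 within groups and 0.994 to 0.996 between them. The number of arrays limits the precision.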

Additional observations from a re-analysis of the deposited data

How the results depend on the processing

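The 3 higher members kept their direction in every fit tried, and Gja5 kept its call at 0.05 in each of the 14 other fits. At an adjusted p under 0.01 no member passed (0.27 for Gja5, 0.22 for Tjp1 and 0.20 for Pkp2 on the log2 scale, 0 called). Over all probe sets, with more tests in the adjustment, 1 member passed at 0.05 (Gja5, limma adjusted p = 0.0291). In that fit the adjusted p was 0.0615 for Tjp1 and 0.0772 for Pkp2, at log2 fold changes of 0.22 and 0.20.

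No pairing by the numbers of the sample titles was seen. Same-numbered deviations correlated at -0.03, 0.05 and -0.28 for numbers 1, 2 and 3, and differently numbered ones at -0.18 to 0.21. With 3 samples per group these values cannot show whether same-numbered samples shared a culture. With the replicate block, limma called 490 probe sets higher and 1010 lower, 1 member (Gja5, adjusted p = 0.0383, against 0.075 for Tjp1 at 0.22 and 0.0979 for Pkp2 at 0.20), 1 desmosomal gene higher, 1 connexin lower, and 0 linkers higher and 0 factors lower.

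With 1 sample left out, 417 to 873 probe sets were higher and 803 to 1810 lower, and 1 to 3 members were higher. Log2 fold changes ranged from 0.17 to 0.22 for Pkp2, 0.19 to 0.25 for Tjp1, -0.068 to 0.053 for Dsc2, -0.023 to 0.020 for Gja1 and -0.041 to 0.038 for Jup. Counts ranged from 0 to 0 for linkers higher, 1 to 2 for desmosomal genes higher, 1 to 2 for connexins lower, 1 to 2 for other disc residents lower, 0 to 4 for factors lower, 3 to 5 for atrial markers lower, 0 to 1 for endothelial markers lower, 2 to 3 for smooth muscle markers lower and 1 to 2 for mesothelial markers lower.

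Near-zero members turned sign: Dsc2 to 0.068 and Gja1 to 0.014 after another quantile normalization, to 0.017 and 0.014 after centring on the median, and Jup to -0.012 with array weights; the cause was not tested. The share of higher calls was 33.6% as reported, 44.4% after that normalization (917 higher, 1148 lower).

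With adjusted p-values from the one-way test that the statistics methods name, 376 probe sets were higher and 675 lower, with 2 linkers and 2 endothelial markers higher, 0 connexins, 0 factors, 0 endothelial and 0 leukocyte markers lower, 2 atrial markers lower, 1 smooth muscle and 1 mesothelial marker lower. Without adjustment, 1483 were higher and 2467 lower, with 5 linkers, 3 disc residents and 2 endothelial markers higher, and 4 linkers, 1 desmosomal gene, 2 disc residents, 4 factors, 6 cardiomyocyte and 2 fibroblast markers lower.

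A threshold of 0.01 left 296 probe sets higher and 563 lower, with 0 linkers and 0 desmosomal genes higher, 1 connexin, 0 factors, 2 atrial, 0 endothelial and 1 mesothelial marker lower. A threshold of 0.1 gave 1265 higher, with 2 linkers, 3 disc residents, 2 endothelial and 2 mesothelial markers higher, and 3 disc residents and 4 factors lower. With trend and robust eBayes, 3 linkers and 3 disc residents were higher, and 4 linkers, 3 disc residents, 3 factors and 1 fibroblast marker lower. With the dim probe sets left out, 2 linkers, 1 desmosomal gene, 3 disc residents and 2 endothelial markers were higher, and 3 disc residents and 3 factors lower. Over all probe sets, 0 linkers were higher, and 1 connexin, 0 factors, 0 endothelial and 1 mesothelial marker lower. With array weights, 2 disc residents and 4 factors were lower; after another quantile normalization, 2 endothelial markers were higher and 1 mesothelial marker lower. Dim probe sets have values that may be background.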
